A study of Homo sapiens with 12 samples.

Results

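The set described here consists of 10 cell cycle genes: the D cyclins CCND1, CCND2 and CCND3, the E cyclins CCNE1 and CCNE2, cyclin A2 (CCNA2), cyclin B1 (CCNB1) and the kinases CDK2, CDK4 and CDK6. They were chosen by name, with earlier results of these data known, as classical cyclins of the cell cycle phases and some partner kinases. CDK1, the kinase of cyclin B1, is followed with the wider pathway instead. The 10 genes were found by Ensembl identifier among the 59424 genes of both expression tables. RNA-seq was performed on 2 human prostate cancer cell lines, each changed in one direction for GALNT7, which encodes a glycosyltransferase of O-linked glycosylation. CWR22Rv1 cells carried a lentiviral shControl or a lentiviral shRNA against GALNT7 (GALNT7 KD). DU145 cells carried a lentiviral control open reading frame (OEControl) or a GALNT7 open reading frame (GALNT7 OE). All 4 groups were thus stably transduced lines with 3 biological replicates each, and the sources used here do not say whether each line was a clone or a pool. The labels name no separate transductions within a group, so the p-values below measure the spread between libraries of a group. An effect of GALNT7 and another difference between the transduced lines cannot be told apart. Wording such as "after knockdown" names the comparison only. The question for these genes was which cyclins and CDKs differed in level when GALNT7 was lowered or raised.

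Cyclins are regulatory subunits that switch on cyclin-dependent kinases (CDKs), and most of them are made and destroyed once in every division. D cyclins act with CDK4 and CDK6 in G1 and phosphorylate the retinoblastoma protein RB, which frees E2F transcription factors. E cyclins with CDK2 then drive entry into S phase, cyclin A2 acts with CDK2 and CDK1 through S phase and G2, and cyclin B1 with CDK1 drives mitosis. D cyclin genes answer mainly to growth signals, while the E, A and B cyclin genes are transcribed in a fixed order through the cycle. DU145 cells are known to lack functional RB.

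Recovered depth was 18364512 to 22264533 reads for the CWR22Rv1 libraries and 21628718 to 24356910 for those of DU145. Values are normalised counts, the number of reads on a gene divided by a size factor of its library, and each table was scaled by itself. GALNT7 was 862, 1042 and 1093 in the shControl libraries and 481, 501 and 400 in the GALNT7 KD libraries. In DU145 cells it was 1051, 928 and 913 in OEControl and 1988, 2221 and 2334 in GALNT7 OE, so that in both cell lines the targeted gene moved as labelled. The luminal prostate markers KLK3 and KLK2 averaged 392 and 959 in shControl, while in DU145 cells KLK3 was at 0 in every library. All 4 epithelial markers were present in every group. The leukocyte marker sum stayed between 3.7 and 25.6 in all libraries, with CD3E at 0 in each group. The fibroblast marker sum differed between groups: it was 240 to 332 in shControl, 667 to 781 in GALNT7 KD, 289 to 422 in OEControl and 55.4 to 155 in GALNT7 OE. In CWR22Rv1 cells most of it was LUM and in DU145 cells COL1A1, and the part of this difference in the results was not tested.

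Differences were tested in each cell line with limma on log2(normalised count + 1), for genes averaging 5 or more normalised counts in that line, with p-values adjusted over every gene tested and a threshold of 0.05. Of the 10 cyclin and CDK genes, 9 entered the test in each cell line, since CCND2 was almost silent. After GALNT7 knockdown 5 of the 9 passed, against 9.06% of all genes tested (5.28% higher and 3.79% lower). CCND3 and CCNE2 rose, whereas CCND1, CDK4 and CDK2 fell, and none of these changes reached a factor of 1.5. After GALNT7 overexpression 6 of the 9 rose, in a comparison in which 43.5% of all genes tested passed, 22.9% higher and 20.5% lower. These 6 were CCNB1, CCNA2, CCNE2, CDK2, CDK4 and CCND3. None of the 9 fell past the threshold in limma, edgeR or DESeq2, and 1, CCND1, was lower with an unadjusted limma p under 0.05. The median log2 fold change of the 9 genes was -0.03 in knockdown and 0.72 in overexpression, beside -0.006 and -0.011 for all genes tested.

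**Figure D1:**
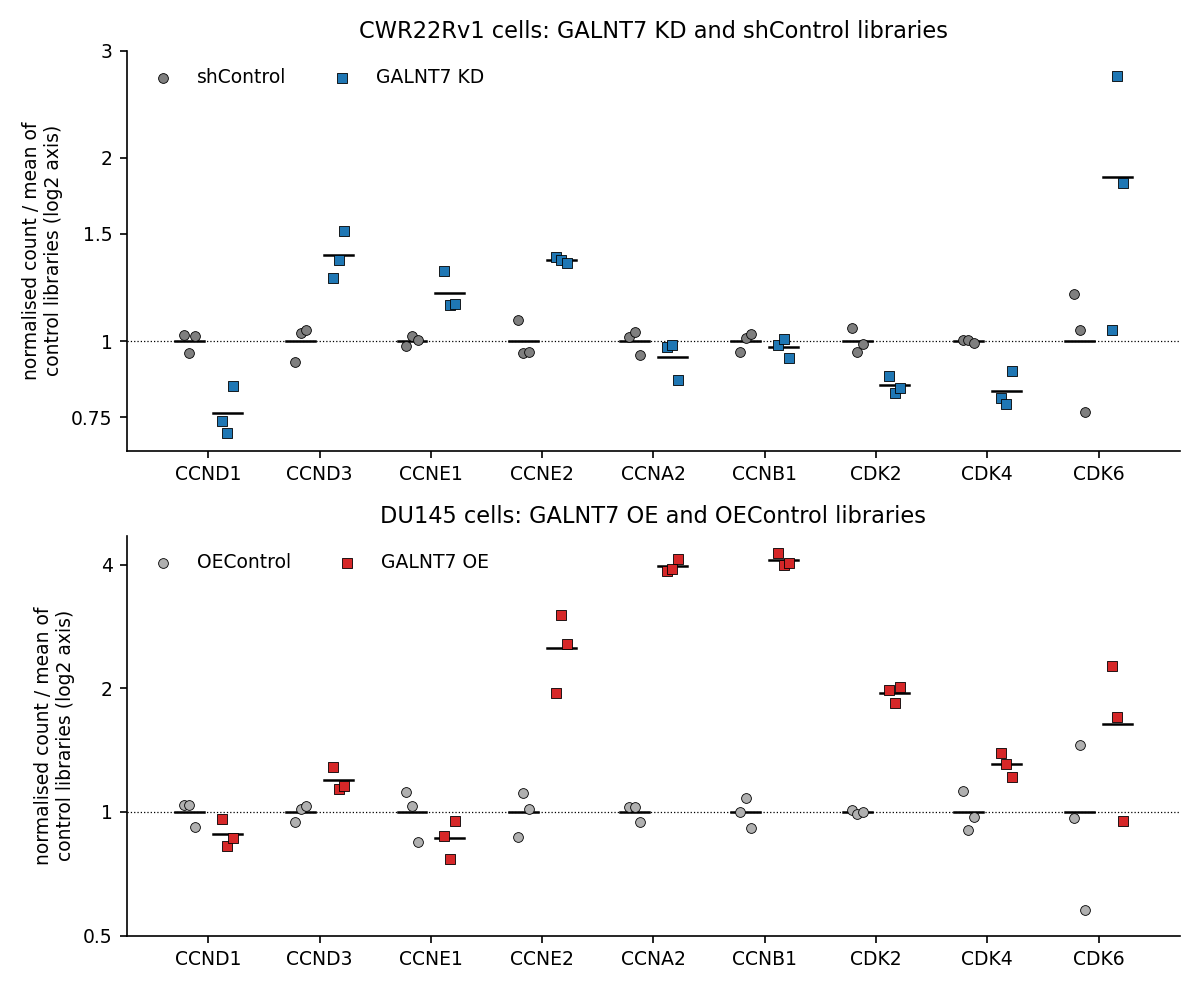
Normalised count of each tested cyclin and CDK gene in every library, divided by the mean of the 3 control libraries of that cell line, on a log2 axis. Points are single libraries and black bars are group means. In CWR22Rv1 cells (top) all ratios of means except that of CDK6 lie between 0.763 and 1.38, while in DU145 cells (bottom) CCNA2 and CCNB1 of the GALNT7 OE libraries sit near 4 times the control.

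The D cyclins moved in opposite directions after knockdown. CCND1 (ENSG00000110092, chromosome 11, 69641087 to 69654474 on the plus strand of GRCh38) had 42321, 39653 and 42288 normalised counts in shControl and 30654, 29271 and 34942 in GALNT7 KD. Every KD library lay below every control library, a separation (in either direction) that 32.5% of all genes tested in knockdown showed. The means were 41421 ± 1530 (SD, n = 3) and 31622 ± 2960 (SD, n = 3), a difference of -0.39 on the log2 scale (SE 0.0668; adjusted p = 0.018 in limma). CCND3 (ENSG00000112576, chromosome 6, 41934933 to 42050357, minus strand), the D cyclin best known from lymphocytes and also widely expressed, had 674, 752 and 761 in shControl and 926, 991 and 1108 in GALNT7 KD. All 3 KD libraries were higher, and the mean rose from 729 ± 47.7 to 1008 ± 92.0 (SD, n = 3), a difference of 0.47 on the log2 scale (SE 0.0937; adjusted p = 0.029 in limma). Within a library, the log2 difference CCND1 minus CCND3 went from 5.97, 5.72 and 5.79 in shControl to 5.05, 4.88 and 4.98 in GALNT7 KD. The 2 groups did not overlap, and the difference shrank by 0.86 on the log2 scale (exact permutation test, two-sided; p = 0.1 is the lowest possible with 3 libraries a group, and 0.175 after adjustment over the 7 pairs of this comparison). CCND1 did not pass without shControl replicate 1, shControl replicate 3 or GALNT7 KD replicate 1 (limma adjusted p = 0.071, 0.065 and 0.071), and CCND3 did not pass in any of the 6 fits that left out 1 library (adjusted p 0.057 to 0.10).

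After overexpression CCND3 rose and CCND1 did not pass the threshold. CCND1 had 6455, 6453 and 5713 normalised counts in OEControl and 5973, 5133 and 5362 in GALNT7 OE, and the groups overlapped in OEControl replicate 3 and GALNT7 OE replicate 1. Its log2 fold change of -0.18 (SE 0.0745, 95% interval -0.35 to 0) did not pass in limma (adjusted p = 0.095), although it passed after 75th percentile scaling (-0.23, adjusted p = 0.034), after quantile normalisation (-0.24, adjusted p = 0.045) and without GALNT7 OE replicate 1 (adjusted p = 0.035) or OEControl replicate 3 (adjusted p = 0.050). CCND3 went from 489, 526 and 533 to 665, 588 and 596. The groups did not overlap, which held for 55.3% of all genes tested in overexpression, and the log2 fold change was 0.26 (SE 0.083; adjusted p = 0.044 in limma), yet 0 of 6 fits that left out 1 library kept it under the threshold (adjusted p 0.063 to 0.13). CCND3 also did not pass after 75th percentile scaling or quantile normalisation (limma adjusted p = 0.086 and 0.097), and it passed in 7 of 18 alternatives. CCND1 minus CCND3 shrank by 0.43 in DU145 cells (exact permutation p = 0.1, adjusted 0.140).

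CCND2 (ENSG00000118971, chromosome 12, 4273772 to 4305350, plus strand) was the silent D cyclin of both lines. It had 0 reads in all 6 CWR22Rv1 libraries, where 3 reads, the limit that a count of 0 allows, equal 2.65 to 3.2 normalised counts. In DU145 cells there were 2, 1 and 1 reads in OEControl and 0, 3 and 1 in GALNT7 OE. No difference could be detected at this depth, and no fold change was computed. Such limits cover counting error only.

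CDK4 and CDK6, the kinase partners of the D cyclins, differed in level and in how evenly the replicates agreed. CDK4 (ENSG00000135446, chromosome 12, 57747727 to 57756013, minus strand) had 6624, 6609 and 6539 normalised counts in shControl and 5311, 5200 and 5884 in GALNT7 KD. The 3 controls were within a narrow band and all KD libraries lay below it, with means of 6591 ± 45.3 and 5465 ± 367 (SD, n = 3) and or -0.27 on the log2 scale (SE 0.0547; adjusted p = 0.029 in limma). In DU145 cells CDK4 went from 1967, 1583 and 1707 to 2439, 2292 and 2135, again without overlap. This rise of 0.39 on the log2 scale (SE 0.093; adjusted p = 0.014 in limma) stayed past the threshold in all 18 alternative fits.

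CDK6 (ENSG00000105810, chromosome 7, 92604921 to 92836594, minus strand) was the least reproducible gene of the set. Its counts were 750, 656 and 480 in shControl and 656, 1710 and 1143 in GALNT7 KD, so GALNT7 KD replicate 1 equalled a control library. In DU145 cells they were 382, 577 and 229 in OEControl and 897, 676 and 376 in GALNT7 OE. The log2 fold changes of 0.81 (95% interval -0.01 to 1.63) and 0.72 (SE 0.412) did not pass in limma (adjusted p = 0.20 in both). DESeq2 on the recovered reads gave an adjusted p of 0.030 for CDK6 in knockdown, which is the single alternative of 18 that passed there. The knockdown value was 0.49 without GALNT7 KD replicate 2, and the overexpression value was 0.38 without OEControl replicate 3 and 0.45 without GALNT7 OE replicate 1. At this spread changes of up to 1.63 in knockdown and 1.7 in overexpression, on the log2 scale, remained within the 95% intervals.

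Of the E cyclins CCNE2 rose in both comparisons, while CCNE1 passed the threshold in neither. CCNE2 (ENSG00000175305, chromosome 8, 94879770 to 94896678, minus strand) had 1151, 1017 and 1022 normalised counts in shControl and 1462, 1444 and 1431 in GALNT7 KD. The KD libraries were nearly equal to each other and all above the controls, with 0.45 on the log2 scale (SE 0.0706; adjusted p = 0.014 in limma). This call was lost without shControl replicate 3 or GALNT7 KD replicate 1 (limma adjusted p = 0.058 and 0.064). In DU145 cells CCNE2 rose from 163, 208 and 190 to 364, 564 and 480, that is from 187 ± 22.4 to 469 ± 100 (SD, n = 3). The lowest GALNT7 OE library exceeded the highest control, and the log2 fold change of 1.31 (SE 0.179; adjusted p = 0.0013 in limma) passed in all 18 alternatives. CCND3 was the other gene of the set that rose in both comparisons, although GALNT7 was lowered in one and raised in the other.

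CCNE1 (ENSG00000105173, chromosome 19, 29811898 to 29824308, plus strand) had 274, 284 and 280 normalised counts in shControl and 364, 320 and 321 in GALNT7 KD. These groups did not overlap, and the log2 fold change was 0.26 (95% interval 0.03 to 0.48, limma adjusted p = 0.15). In DU145 cells CCNE1 had 346, 320 and 261 in OEControl and 270, 238 and 294 in GALNT7 OE. The groups overlapped, with a log2 fold change of -0.20 (95% interval -0.54 to 0.13, limma adjusted p = 0.28). Within DU145 libraries CCNE2 minus CCNE1 went from -1.08, -0.62 and -0.45 to 0.43, 1.24 and 0.71 on the log2 scale. The difference thus moved by 1.51 (exact permutation p = 0.1, adjusted 0.140), whereas in CWR22Rv1 cells it moved by 0.19 with overlapping groups (p = 0.2, adjusted 0.280).

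CDK2 (ENSG00000123374, chromosome 12, 55966769 to 55972784, plus strand), the kinase of the E cyclins and of cyclin A2, had 4185, 3820 and 3936 normalised counts in shControl and 3491, 3268 and 3339 in GALNT7 KD. All KD libraries were below the controls, with -0.24 on the log2 scale (SE 0.054; adjusted p = 0.041 in limma). In DU145 cells the order was the other way: CDK2 had 1523, 1486 and 1508 in OEControl and 2992, 2777 and 3042 in GALNT7 OE. The controls differed by little among themselves, and the mean went from 1506 ± 18.8 to 2937 ± 141 (SD, n = 3), a difference of 0.96 on the log2 scale (SE 0.0539; adjusted p = 2.6e-05 in limma). CDK2 minus CDK4 within a library moved by 0.57 in DU145 cells (exact permutation p = 0.1, adjusted 0.140) and by 0.03 in CWR22Rv1 cells (p = 0.8).

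The knockdown values of CDK2 and CDK4 stood where their chromosome stood. In GALNT7 KD the other 920 tested genes of chromosome 12 had a median log2 fold change of -0.278, and 83.2% of them were lower than in shControl. The median was 0.006 for the 16984 tested genes outside that chromosome. When each gene was centred on the median of its own chromosome, CDK2 was at 0.03 (limma adjusted p = 0.80) and CDK4 no longer passed (adjusted p = 0.99). Neither kinase held up when libraries were left out: CDK2 was lost in all 6 such limma fits (adjusted p 0.066 to 0.13) and CDK4 in 5 of 6 (adjusted p 0.071 to 0.11), with GALNT7 KD replicate 3 as the library whose removal kept it (adjusted p = 0.012). CCND1, on chromosome 11, and CCND3 and CCNE2, on chromosomes 6 and 8, lay on chromosomes whose other genes had medians of 0.014, 0.032 and 0.036. After the same centring CCND1 and CCNE2 passed (limma adjusted p = 0.012 and 0.022), whereas CCND3, at 0.42, did not (adjusted p = 0.052). In DU145 cells the other 938 tested genes of chromosome 12 had a median of 0.065, well below the values of CDK4 and CDK2.

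**Figure D2:**
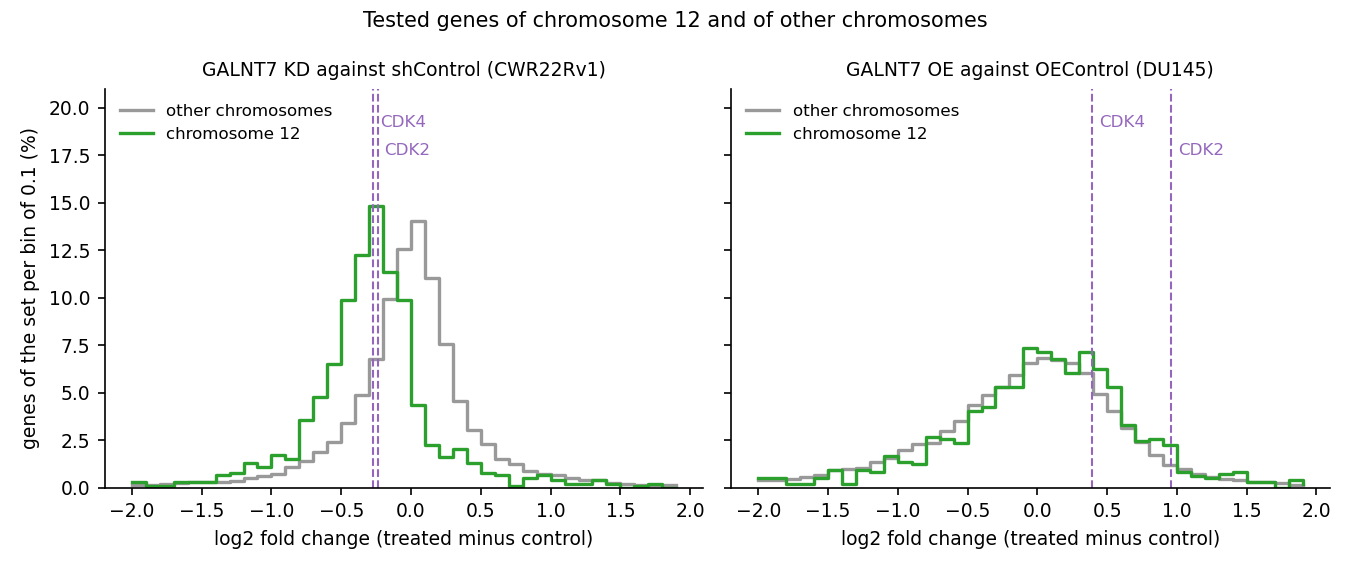
Share of tested genes per bin of 0.1 log2 fold change, for chromosome 12 (green) and all other chromosomes (grey), in knockdown (left) and overexpression (right). Dashed lines mark CDK4 and CDK2. In knockdown both kinases lie at the peak of the displaced chromosome 12 distribution, whose median is -0.278, and in overexpression, where the chromosome 12 median is 0.065, CDK2 lies in the upper tail.

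Cyclin A2 and cyclin B1 gave the largest changes of the set, and they did so in DU145 cells. CCNA2 (ENSG00000145386, chromosome 4, 121816444 to 121823933, minus strand) went from 505, 505 and 466 normalised counts in OEControl to 1896, 1917 and 2032 in GALNT7 OE. Each GALNT7 OE library was several times higher than any control, and the mean of 1948 ± 73.1 was 3.96 times that of 492 ± 22.3 (SD, n = 3), a difference of 1.98 on the log2 scale (SE 0.066; adjusted p = 3.8e-06 in limma). CCNB1 (ENSG00000134057, chromosome 5, 69167010 to 69178245, plus strand) went from 706, 762 and 646 to 3003, 2822 and 2851. Its mean rose from 705 ± 58.0 to 2892 ± 97.0 (SD, n = 3), a difference of 2.04 on the log2 scale (SE 0.0746; adjusted p = 5.2e-06 in limma). Among all genes tested in DU145 cells, 99.0% had a lower log2 fold change than CCNA2 and 99.1% a lower one than CCNB1. In bulk RNA a larger share of cells in S, G2 or M phase and more transcript per cell cannot be told apart. The proliferation markers MKI67, TOP2A and PCNA, all 3 measured, rose alongside in DU145 cells by 1.92, 1.64 and 1.04 on the log2 scale (limma adjusted p = 9.5e-05, 1.9e-05 and 8.6e-06) and their summed level lay between 10565 and 10852 in OEControl and between 30190 and 37864 in GALNT7 OE. Their part in the changes of the cyclins was not tested.

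In CWR22Rv1 cells neither of these cyclins passed the threshold. CCNA2 had 3732, 3805 and 3488 normalised counts in shControl and 3598, 3619 and 3178 in GALNT7 KD. CCNB1 had 4546, 4802 and 4883 in shControl and 4682, 4777 and 4451 in GALNT7 KD. The groups overlapped for both genes, with log2 fold changes of -0.09 (95% interval -0.25 to 0.08) for CCNA2 and -0.03 (95% interval -0.15 to 0.09) for CCNB1, neither past the threshold (limma adjusted p = 0.47 and 0.73). MKI67, PCNA and TOP2A had log2 fold changes of 0.05, -0.07 and -0.12 there, with 0 of 3 past the threshold in limma, edgeR or DESeq2 and 0 with an unadjusted limma p under 0.05, and their summed level was 17791 to 23775 in shControl and 17950 to 21715 in GALNT7 KD. CCNB1 minus CCNA2 moved by 0.05 in CWR22Rv1 and 0.06 in DU145 cells (exact permutation p = 0.4 and 0.5), with overlapping groups in each line and means of 0.37, 0.42, 0.51 and 0.57 in shControl, GALNT7 KD, OEControl and GALNT7 OE.

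Because CCNA2 and CCNB1 moved together, the 250 bases before their RefSeq start sites on GRCh38.p14 are shown, with letters of known cell cycle promoter elements in capitals: the CCAAT box (CCAAT, or ATTGG on the other strand), the cAMP response element CRE (TGACGTCA) and the E-box (CACGTG). The CCNA2 sequence is chr4:121823884-121824133 on the minus strand and the CCNB1 sequence is chr5:69166900-69167149 on the plus strand, and both run 5′ to 3′ towards the gene. Part of each stretch lies inside the longer gene span of GENCODE.
CCNA2: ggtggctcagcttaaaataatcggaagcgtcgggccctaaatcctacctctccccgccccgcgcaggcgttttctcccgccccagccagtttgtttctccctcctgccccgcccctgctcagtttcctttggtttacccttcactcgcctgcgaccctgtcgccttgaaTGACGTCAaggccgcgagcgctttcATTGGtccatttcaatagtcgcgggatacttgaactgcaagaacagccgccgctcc
CCNB1: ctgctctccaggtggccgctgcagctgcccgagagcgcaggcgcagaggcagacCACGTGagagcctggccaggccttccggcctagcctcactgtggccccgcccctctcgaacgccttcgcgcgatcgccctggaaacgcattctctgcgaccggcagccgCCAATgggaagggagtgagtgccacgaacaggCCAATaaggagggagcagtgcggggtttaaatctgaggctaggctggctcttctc
CCNA2 held 1 CCAAT box, 56 bases before the start, and 1 CRE, 81 bases before it. CCNB1 held 2 CCAAT boxes, at 87 and 55 bases, and 1 E-box at 196 bases. Searched on both strands in windows of the same length, these letters occur in 32.0% (CCAAT), 1.65% (CRE) and 6.34% (E-box) of 35116 RefSeq promoters, and none of the matches shown overlaps another. Of the 10 genes, 6 had an entry, in 9 windows. CDK4 held 3 E-boxes and 2 of the 3 CCND3 windows a CCAAT box, whereas the CCNE1 and CDK6 windows held none of the 3 elements. The letters TTTGAA or TTCGAA of the element called CHR, found in 14.3% of promoters, and the E2F letters TTTCCCGC, TTTCGCGC, TTTGCCGC or TTTGGCGC, found in 2.79%, were in none of the 9 windows. Other forms of the CHR and E2F elements were not searched, so these counts do not show that either element is absent. Such matches describe the letters and say nothing of binding.

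Set side by side, the 2 comparisons differed most for the late cyclins. For CCNA2 and CCNB1 the knockdown values were -0.09 and -0.03 and the overexpression values 1.98 and 2.04. CCND3 and CCNE2 were positive in both, CCND1 was negative in both with a call in knockdown alone, and CDK2 and CDK4 were negative in knockdown and positive in overexpression. The cell lines were fitted separately and differ in background, so the difference between the 2 comparisons was not tested. Within DU145 libraries, CCNA2 moved further than CCNE2 by 0.68 on the log2 scale and CCNB1 further than CCND1 by 2.22 (exact permutation p = 0.1 for both, adjusted 0.140). In CWR22Rv1 libraries CCNA2 minus CCNE2 moved by -0.53 and CCNB1 minus CCND1 by 0.36 (exact permutation p = 0.1 for both, adjusted 0.175). CDK6 minus CDK4 moved by 1.09 in knockdown without overlap of the groups (exact permutation p = 0.1, adjusted 0.175) and by 0.33 in overexpression with overlap (p = 0.6). Single libraries set the size of this difference: it was 0.72 without GALNT7 KD replicate 2, 0.01 without OEControl replicate 3, 0.10 without GALNT7 OE replicate 1, 0.73 without OEControl replicate 2 and 0.64 without GALNT7 OE replicate 3. No pair could pass 0.05 with 3 libraries a group.

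**Figure D3:**
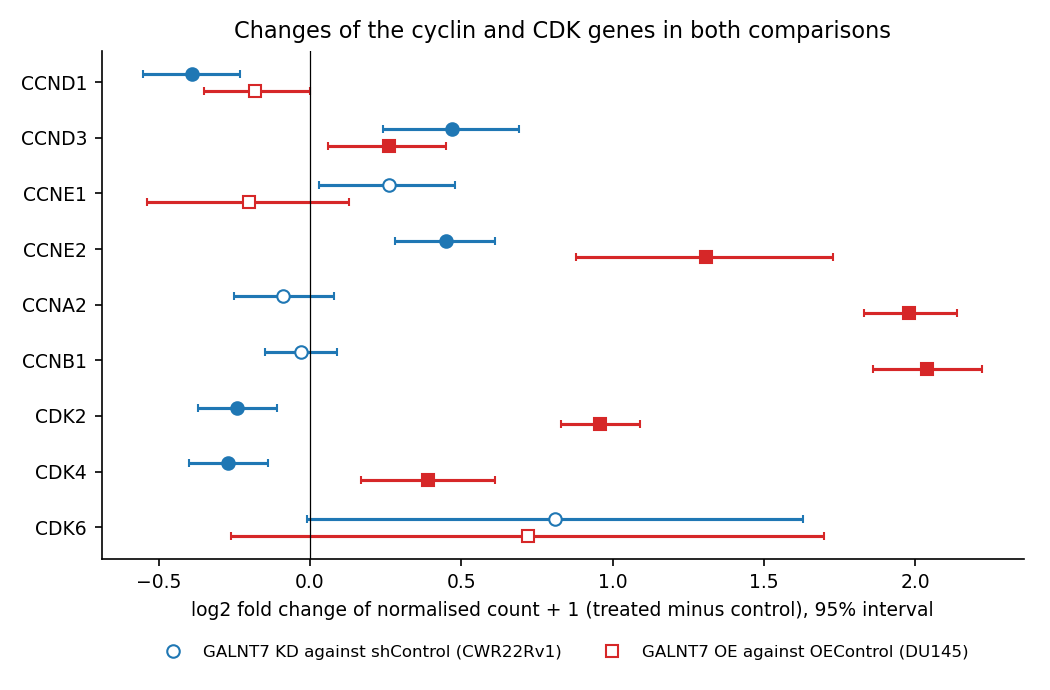
Log2 fold change of normalised count + 1 for the 9 tested genes in both comparisons, with the 95% interval from limma. Blue circles are GALNT7 KD against shControl, red squares GALNT7 OE against OEControl, and filled symbols passed an adjusted p of 0.05. The intervals of CCNA2, CCNB1, CCNE2 and CDK2 in overexpression lie entirely above 0.8, and those of CDK6 are the widest.

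Levels were compared between genes per kb of exon, within each cell line. The length was that of all annotated exons of a gene joined, whether or not these cells use them. Orders and shares between genes depend on that choice. In shControl cells the order of mean normalised counts per kb was CCND1 at 8576, CDK4 at 2080, CCNB1 at 1854, CCNA2 at 1313, CDK2 at 1022, CCNE2 at 242, CCND3 at 126, CCNE1 at 110 and CDK6 at 51.3, and no neighbours in this order overlapped. In GALNT7 KD cells CCNB1 (1813) and CDK4 (1725) overlapped and stood in the reverse order, and CCNE1 (131) and CDK6 (95.4) also overlapped. In OEControl cells CCND1 (1285) led CDK4 (553), CDK2 (387), CCNB1 (275) and CCNA2 (176), and at the lower end CCNE2 (42.5) and CDK6 (32.3) could not be separated. In GALNT7 OE cells the order was compressed into tiers: CCND1 (1137) overlapped CCNB1 (1131), then CDK2 (754), CDK4 (722) and CCNA2 (696) overlapped their neighbours, as did CCNE2 (107), CCND3 (106) and CCNE1 (105).

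The make-up of each family was taken from normalised counts per kb, with the same joined exon length. CCND1 supplied 98.6 ± 0.125% (SD, n = 3) of D cyclin transcript in shControl and 97.4 ± 0.145% in GALNT7 KD, and 93.5 ± 0.648% in OEControl and 91.4 ± 0.144% in GALNT7 OE. CCND1 remained by far the main D cyclin in all 4 groups. CCNE2 supplied 68.8 ± 1.84% of E cyclin transcript in shControl and 71.5 ± 1.31% in GALNT7 KD, and these groups overlapped. In DU145 cells CCNE2 was the minor E cyclin in OEControl, at 26.2 ± 4.26% (21.5, 27.3 and 29.7% in the 3 libraries), and made up 50.1 ± 7.08% in GALNT7 OE (43.9, 57.8 and 48.7%), with no overlap. CDK6 supplied 2.40 ± 0.498% of the CDK4 and CDK6 total in shControl and 5.24 ± 2.40% in GALNT7 KD, and 5.58 ± 2.72% and 6.70 ± 2.19% in the DU145 groups, which overlapped.

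**Figure D4:**
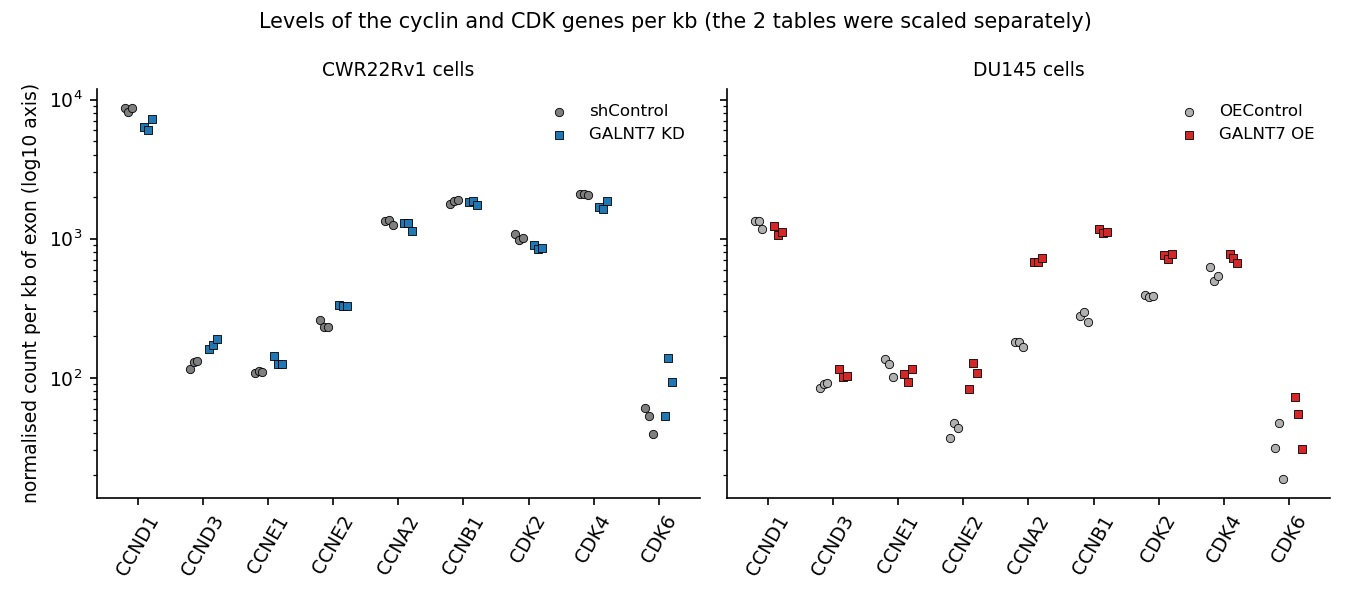
Normalised count per kb of exon for the 9 tested genes in every library, on a log10 axis, CWR22Rv1 on the left and DU145 on the right. Points are single libraries, with 3 in each group, and the 2 tables were scaled separately, so levels compare within a panel. CCND1 has the highest mean in each group, and in GALNT7 OE cells CCNB1 (1131) reaches the level of CCND1 (1137).

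The genes nearest in pattern were taken as those with the smallest root mean square difference over all 12 libraries, each library expressed as log2(normalised count + 1) minus the control mean of its cell line, among 11816 genes averaging at least 50 in both tables. For CCNA2 these were CDCA8, BUB1B and KIF20A (0.0634, 0.0679 and 0.0695, against a median of 0.974 over all genes), which encode a chromosomal passenger protein, a spindle checkpoint kinase and a mitotic kinesin. For CCNB1 they were DLGAP5, CCNA2 itself and NCAPH (0.0662, 0.0765 and 0.0767). For CCNE2 the nearest were CENPP, HYLS1 and MASTL, at 0.154, 0.168 and 0.171, against a median of 0.698. CCND1 was followed most closely by the identifier ENSG00000273889 (0.0601), then MTA1 (0.0724) and BAIAP2 (0.0750). CDK6 had no close neighbour, since ZNF624, the nearest, was at 0.444 and the median gene at 0.749. Since the control means were subtracted, this likeness rests on the GALNT7 KD and GALNT7 OE means and the spread within the 4 groups. It is a description only.

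The wider pathway was followed through 8 lists holding 81 other genes. After knockdown 79 were tested, of which 6 rose and 5 fell, in a comparison in which 5.28% of all genes tested rose and 3.79% fell. Their median log2 fold change was 0.01, beside -0.006 for all genes tested. With so few genes called in any 1 list, the calls below describe single genes and not the lists. Of the mitotic and other cell cycle cyclins and CDKs, 0 of 5 passed in limma, edgeR or DESeq2, and 1, CCNF, had an unadjusted limma p under 0.05. CDK1 and CCNB2 had log2 fold changes of -0.05 and -0.11. CCNH, the cyclin of the CDK-activating kinase, fell from 1075 ± 10.4 to 674 ± 36.5 (SD, n = 3; log2 fold change -0.67, limma adjusted p = 0.0035). Of 8 CDK inhibitors, CDKN1A (p21) rose from 1394 ± 66.0 to 2010 ± 74.2 (0.53, limma adjusted p = 0.0059) and CDKN1B (p27) fell by 0.32 (adjusted p = 0.041). Among 16 genes of the RB family and of the transcription of cyclin genes, FOXM1, a transcription factor of mitotic genes, fell by 0.40 (limma adjusted p = 0.0075) and E2F4 by 0.38 (adjusted p = 0.046). CDKN1B and FOXM1 lie on chromosome 12, whose shift is given above. Of 15 cyclin turnover genes USP28, a deubiquitinase, rose by 0.51 (limma adjusted p = 0.0084). CDK8 rose and CCNL1 fell among 12 transcriptional cyclins and CDKs, and CCNJ, CDK5 and CCNG1 rose among 12 others.

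After overexpression 80 of the 81 genes were tested, of which 47 rose and 11 fell, where 22.9% of all genes tested rose and 20.5% fell. The share that rose was above that of all genes tested and the share that fell below it, and the median was 0.36 beside -0.011 for all genes tested. The list of mitotic and other cell cycle cyclins and CDKs had the highest median, 1.68, with 4 of 6 genes higher. CCNB3 and CDK3 did not pass, at -1.31 and -0.14 (limma adjusted p = 0.19 and 0.64). The GALNT7 OE libraries of CCNB3 were uneven, at 59.1, 77.6 and 468 normalised counts. CDK1, the kinase of cyclins A2 and B1, went from 839, 745 and 969 normalised counts to 4419, 4290 and 2955 (log2 fold change 2.18, limma adjusted p = 0.00011). CCNB2 rose by 2.09 and CCNF by 1.28, and CCNA1, the germ line cyclin A, rose from a mean of 12.2 to 68.1 normalised counts (log2 fold change 2.40, SE 0.297). Activating and docking factors rose in 6 of 9 cases, with CDC25C at 2.16, CKS1B at 1.58 and CDC25A at 1.54, while the chaperone partner CDC37 fell by 0.30. The inhibitory kinases PKMYT1 and WEE1, which act against CDK1, both rose, by 1.40 and 0.46. Of 8 CDK inhibitors 6 rose, CDKN3 and CDKN2C by 1.61 and 0.78, and CDKN1A by 0.55. CDKN1C (p57) went the other way, from 194 ± 14.4 to 35.3 ± 3.41 (SD, n = 3; -2.43, limma adjusted p = 3.4e-05). CDKN1A thus rose in both comparisons, as CCND3 and CCNE2 did. Of the other list genes, CCNJ, USP28 and CCNG1 also rose in both, and CCNL1 fell in both.

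Among the 16 genes of the RB family and cyclin transcription, 12 rose in DU145 cells and 2 fell. MYBL2 and FOXM1, which act at mitotic gene promoters, rose by 2.03 and 1.94, and E2F2 and E2F1 by 1.79 and 1.11, while RBL2 fell by 0.55 and MYC by 0.28. Of 15 turnover genes 11 rose, led by CDC20 (2.02) and UBE2C (1.82), which act in the destruction of cyclin B1. FBXO5 rose by 1.59, UBE2S by 1.47, SKP2 by 1.10 and USP28 by 0.36. The list was not split into genes that promote and genes that oppose turnover. None of the 15 fell past the threshold in limma, edgeR or DESeq2, or with an unadjusted limma p under 0.05. Transcriptional cyclins and CDKs had a median of -0.04, and 4 of 12 fell, with CCNL2 at -1.19 and CDK10 at -0.91, while CCNC rose by 0.46. In the last list of 12, 5 rose and 3 fell, with CCNG1 at 1.08 and CDK18 at -0.50. These 4 of 12 and 3 of 12 lower are few genes and stand beside 20.5% of all genes tested, so they are not a result about either list.

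**Figure D5:**
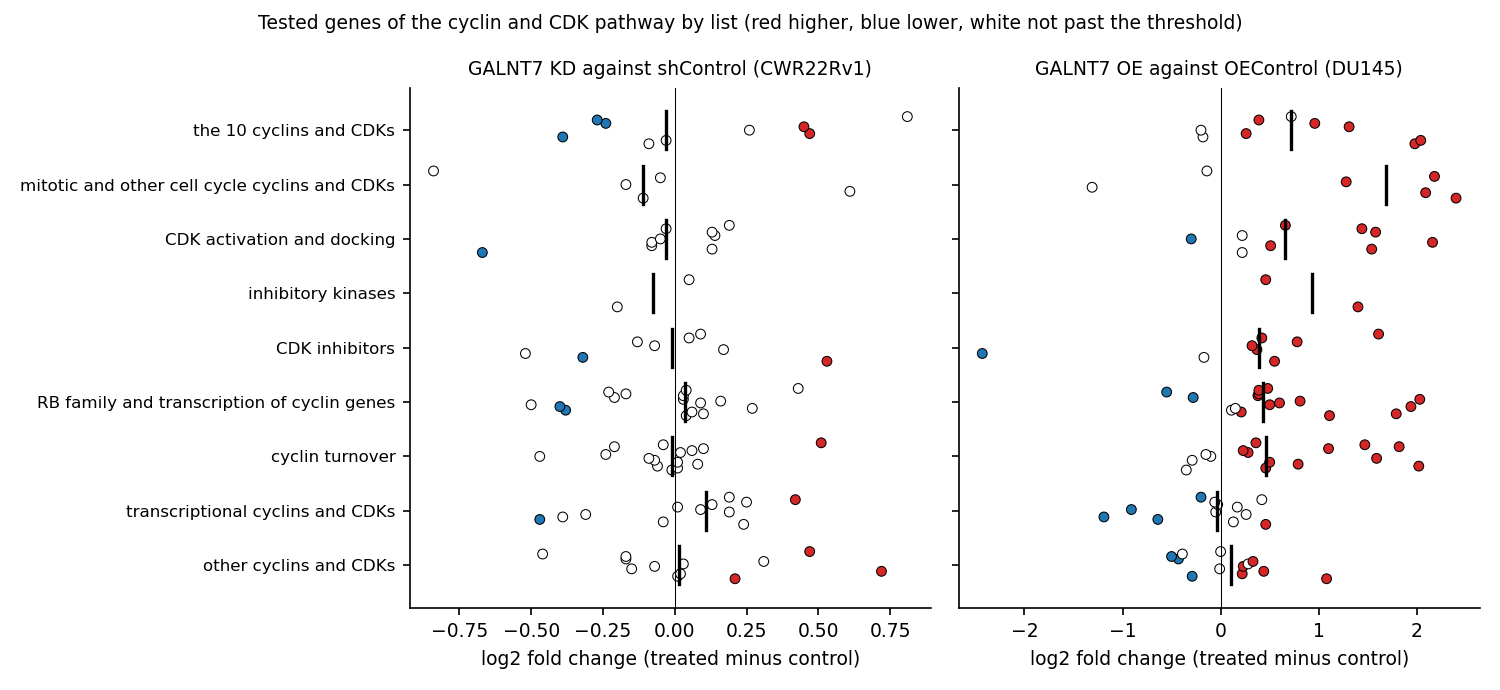
Log2 fold change of each tested gene of the 10 cyclins and CDKs and of the 8 pathway lists, in knockdown (left) and overexpression (right; the axes differ). Red points rose and blue points fell past an adjusted p of 0.05 in limma, white points did not pass, and black bars are list medians. The list of mitotic and other cell cycle cyclins and CDKs has its median at -0.11 in knockdown and 1.68 in overexpression.

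Some of these genes share exon sequence with a neighbour on the opposite strand, and the sources used here do not say which strand setting was used for counting, so reads of such pairs are uncertain. In DU145 cells the neighbours LTO1 (of CCND1), INTS8 (of CCNE2) and EXOSC9 (of CCNA2) rose by 0.71, 0.84 and 0.73 on the log2 scale (limma adjusted p = 0.0054, 0.00025 and 0.00033), less than CCNE2 and CCNA2 did. TSPAN31, which overlaps CDK4, fell from 203 ± 32.0 to 27.6 ± 11.2 (SD, n = 3; -2.91, limma adjusted p = 0.00046), while CDK4 rose. PMEL, at the CDK2 locus, did not pass in limma (adjusted p = 0.075). In CWR22Rv1 cells none of these 5 neighbours passed in limma, edgeR or DESeq2, and their log2 fold changes lay between -0.17 (LTO1) and 0.32 (PMEL), with unadjusted p-values from 0.132 to 0.79.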

How the data were processed

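RNA was extracted with RNeasy kits and libraries were made with a stranded mRNA kit, 3 per group in 4 groups. The authors deposited 1 table per cell line of normalised counts, a signal obtained by scaling each library's reads per gene with that library's size factor. The submitters' processing notes name FastQC, Salmon, DESeq2, R 3.5.3 and hg38 without roles; the annotation release and the strand setting are not given in the sources used here. Dividing each value by the worth of 1 read gave whole numbers for 100% of values (tolerance 0.001), although with Salmon these may be rounded estimates. Names and positions came from GENCODE 29, which holds 94.4% of the identifiers.

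Each cell line was fitted separately with limma 3.58.1 in R 4.3.3 (lmFit and eBayes with a trend, log2(normalised count + 1), mean of 5 or more, Benjamini-Hochberg over all genes tested, threshold 0.05). A fold change on this scale understates that of low genes. Pair differences used exact permutation over libraries. Alternatives were pseudocounts of 0.5 and 8, no filter or a mean of 20, 75th percentile and quantile scaling, edgeR 4.0.16 and DESeq2 1.42.0 on recovered reads, eBayes without trend, a replicate block, each library left out and chromosome centring. On simulated counts in the knockdown design limma recovered 87 of 100 genes changed by 0.5 and 100 of 100 changed by 1 on the log2 scale among 17923 genes, with 9 false calls. In the overexpression design it recovered 86 and 100 among 18707 genes, with 9 false calls. With edgeR the recovered numbers were 88 and 100 in the knockdown design and 87 and 100 in the overexpression design. With DESeq2 they were lower, at 77 and 96 in the knockdown design and 76 and 95 in the overexpression design. Every simulated gene was given the same spread between replicates, and the changed genes were drawn from those averaging at least 50 normalised counts. Recovery at the spread between replicates that the genes had in these data, such as that of CDK6, was not tested. The recovered numbers are therefore a check of the code and not the power of these comparisons.

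The genes and lists were chosen with earlier results of these data known. Named genes were the 10 cyclins and CDKs, GALNT7, the lists' genes, cell type markers, overlapping neighbours and the 3 genes nearest in pattern to CCND1, CCNE2, CCNA2, CCNB1 and CDK6. Replicates of a group differed by more than sampling noise (mean chi-square per gene 9.444 to 25.969). The values of some marker genes are not reported here.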

Additional observations from a re-analysis of the deposited data

How the results depend on the processing

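In overexpression the number of the 9 tested genes past the threshold was 5 or 6 under all 18 alternatives, and CCNA2, CCNB1, CCNE2, CDK2 and CDK4 passed in each. In knockdown the number was 5 as reported, 1 with eBayes without trend (CCNE2), 2 after chromosome centring (CCND1 and CCNE2) and 0 to 3 with 1 library left out, where a group has 2 libraries. For eBayes without trend the cause was not tested. The pathway genes past the threshold in knockdown were 11 as reported, 7 with eBayes without trend, 8 without the filter on low counts and 16 with DESeq2. CDK2 in knockdown changed sign, to 0.03, after chromosome centring, since the median of chromosome 12 was itself negative. No pair difference moved by more than the spread between replicates.

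Same-numbered replicates varied together only weakly: the correlations of their deviations from group means were -0.011, 0.0747 and -0.00568 in CWR22Rv1 cells and 0.0432, 0.0428 and 0.0159 in DU145 cells. Each DU145 library correlated best with its own number, a hint from the data and not from the design, which was not so in CWR22Rv1 cells. Adding a replicate block left 3 of the 9 genes past the threshold in knockdown, where CDK2 and CDK4 had adjusted p = 0.051 and 0.057 in limma. In overexpression, with the block, CCND3 did not pass (limma adjusted p = 0.098) and CDK6 passed (adjusted p = 0.040). Depth limits what can be said of CCND2; for the other 9 genes its part was not tested.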
